A study of Mus musculus with 80 samples.

Results

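GABA-A receptors are the chloride channels through which most fast inhibition acts in the brain, and 7 of their subunit genes were examined here in single cells of the dorsomedial striatum (DMS): Gabra2, Gabra3, Gabra4, Gabra5, Gabrb1, Gabrb2 and Gabrd. They were chosen by name, and all 7 were listed among the 25160 genes of the deposited expression table. The 80 samples are 80 cells of adult mice heterozygous for the BAC transgenes Drd1a-TdTomato and Drd2-EGFP, so that the direct pathway medium spiny neurons (D1 MSN) fluoresce red and the indirect pathway neurons (D2 MSN) fluoresce green. Both groups carried both transgenes, and cells were sorted into wells by their fluorescence after papain digestion of the dissected tissue. The striatum had been marked in the living animal by an injection of ink and a nuclear dye, which both groups share, and no treatment separated them. Of the cells, 40 were labelled Drd1 and 40 were labelled Drd2, and 2 of the Drd2-labelled cells had more than 100 TPM of Chat, the enzyme that makes acetylcholine. The Drd2 reporter also labels cholinergic interneurons, so these 2 cells are described apart and leave 38 D2 MSN. TPM, a count of transcripts per fixed total, is meant to scale each gene by its length and each cell to a common total. Over the listed genes the deposited values summed to between 506588 and 958040 TPM per cell, so that total was not common. Levels of different genes are compared here only as TPM. The study reports a bias of its reads toward the 3′ end of transcripts. The part of this bias in the order of genes of unlike length was not tested.

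A GABA-A receptor is a ring of 5 subunits around a chloride pore. Receptors with alpha, beta and gamma subunits cluster at inhibitory synapses, where they answer brief pulses of GABA. Receptors in which the delta subunit takes the place of gamma lie mostly outside synapses, bind low concentrations of GABA and carry a steady, tonic inhibition, and alpha4 is a frequent partner of delta in the forebrain. MSN are themselves GABAergic and receive inhibition from neighbouring MSN and from interneurons. The alpha subunit also sets the response to benzodiazepines, because 1 residue at the interface of alpha and gamma must be a histidine for classical benzodiazepines to bind, whereas alpha4 carries an arginine there.

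That residue is shown because it splits the alpha genes measured here into 2 classes. The coding sequence around its codon was read from the GRCm38 genome with the GENCODE M21 annotation, 5′ to 3′ on the coding strand, which is the minus strand for all 4 genes, with the codon in capitals. The codon CAC encodes histidine and AGG encodes arginine.
Gabra2: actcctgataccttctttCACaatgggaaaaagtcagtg
Gabra3: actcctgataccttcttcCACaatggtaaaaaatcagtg
Gabra4: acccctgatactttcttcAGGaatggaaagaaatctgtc
Gabra5: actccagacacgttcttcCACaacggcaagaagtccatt
The stretches lie in exon 5 of Gabra2 (chr5:71014487-71014525), exon 5 of Gabra3 (chrX:72501150-72501188), exon 4 of Gabra4 (chr5:71641134-71641172) and exon 5 of Gabra5 (chr7:57488873-57488911). Counted from the first methionine, the residue is 129 in Gabra2, 154 in Gabra3, 135 in Gabra4 and 136 in Gabra5.

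Of the 7 genes, 3 lie on the same chromosome. Gabra2 (chr5:70957597-71095849, minus strand), Gabra4 (chr5:71569749-71658308, minus strand) and Gabrb1 (chr5:71658113-72149037, plus strand) follow each other on chromosome 5. Gabra4 and Gabrb1 start head to head, and 46 bases of their exons overlap on opposite strands, which is 0.756% of the exonic length of Gabra4. Gabra5 (chr7:57407672-57510059, minus strand) shares 148 exonic bases, 4.98% of its exonic length, with the antisense gene Gm9962. The cDNA kit does not mark strand, so reads from these overlaps cannot be assigned to 1 gene. Gabrb2 lies at chr11:42419757-42629028 (plus strand), Gabra3 at chrX:72432681-72656848 (minus strand) and Gabrd at chr4:155384980-155398112 (minus strand).

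A cell was called positive for a gene when its value was above 1 TPM. All 7 MSN markers searched had a median above 1 TPM in both groups, and Ppp1r1b (DARPP-32) was above 1 TPM in all 78 MSN. For Drd1, 38 of 40 D1 MSN and 3 of 38 D2 MSN were positive, for Drd2 it was 2 D1 MSN and 26 D2 MSN, and for Adora2a, the adenosine receptor of indirect pathway neurons, 1 D1 MSN and 31 D2 MSN. Single cells went against their label, as the summed D2 MSN markers reached 3682 TPM in a D1 MSN and the summed D1 MSN markers reached 1218 TPM in a D2 MSN. The number of genes above 1 TPM ranged from 648 to 8657 in D1 MSN (median 5722) and from 1215 to 7942 in D2 MSN (median 4927.5). The D1 MSN with 648 genes, in well B02 of plate FACS086_4, also had the lowest summed MSN markers, at 4.21 TPM. The summed astrocyte markers (4 of 5 listed) had medians of 0.545 TPM in D1 and 0.1301 TPM in D2 MSN, cortical markers (3 of 4 listed) 0.567 and 0.196 TPM, and oligodendrocyte markers (4 of 5 listed) 2.86 and 2.96 TPM. Their highest sums in single cells were 2654 TPM for astrocyte, 147 TPM for cortical and 260.0 TPM for oligodendrocyte markers, each in a D1 MSN. The summed endothelial markers (2 of 3 listed) were above 10 TPM in every MSN, with medians of 31.97 and 30.96 TPM. In each group only 1 of these 2 genes had a median above 1 TPM. The cell with the highest astrocyte markers was sorted into well D04 on FACS051_5, and its Drd1 was at 2.03 TPM. The part of these markers in the subunit values was not tested. D1 MSN were named by label alone. Well D04 of FACS051_5 and well B02 of FACS086_4 therefore count among the 40 D1 MSN unless stated, although their markers go against that name. Cells came from 3 plates, of which FACS051_5 held 18 D1 and 16 D2 MSN, FACS086_4 held 21 and 19, and FACS086_9 held 1 and 3. Since no animal is given for any cell, each group counted as 1 sample, cells were not taken for replicates, and the comparison rests on no test. Differences between D1 and D2 MSN are therefore descriptions, given over all plates and within the 2 large plates. Each share of cells carries its 95% exact (Clopper-Pearson) binomial interval, which covers counting error only.

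The 7 genes fell into a widely detected set, an intermediate gene and a sparse set. Gabrd had the highest mean over the 78 MSN, at 127 TPM, followed by Gabra4 at 106 and Gabra2 at 69.4. Gabrd and Gabra4 changed places between the groups, with 105 against 109 TPM in D1 MSN and 150 against 102 TPM in D2 MSN. Gabrb1 had a mean of 34.7 TPM, and the means of Gabrb2, Gabra3 and Gabra5 were 13.97, 10.9 and 7.29. Within cells the order of the upper genes was not fixed, since Gabrd exceeded Gabra4 in 35 MSN and was below it in 42, and Gabra4 exceeded Gabra2 in 47 and was below it in 31. The step from Gabra2 to Gabrb1 was held by more cells, with Gabra2 higher in 63 of 78. Gabrb2 and Gabra3 were both at 0 in many cells and were equal in 27, with Gabrb2 higher in 29 and Gabra3 higher in 22.

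**Figure D1:**
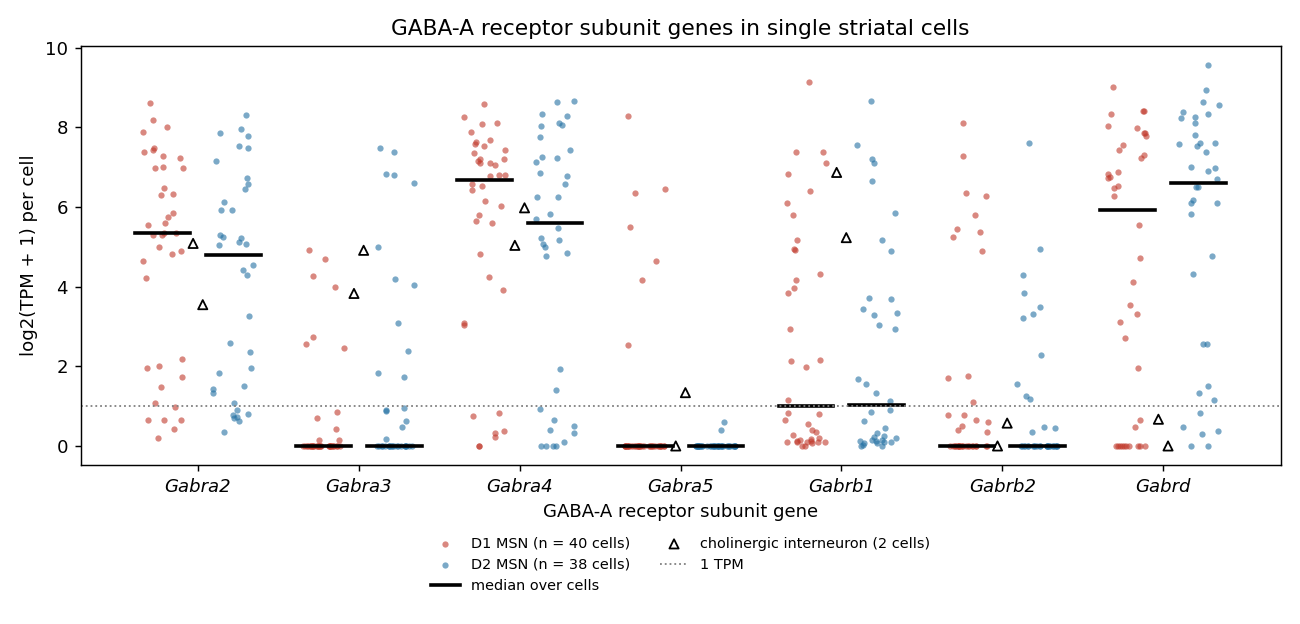
Each point is 1 cell, and the y axis gives log2(TPM + 1) for the 7 subunit genes in 40 D1 MSN (red), 38 D2 MSN (blue) and 2 cholinergic interneurons (triangles); black bars are medians and the dotted line marks 1 TPM. Gabra2, Gabra4 and Gabrd have medians well above 1 TPM in both groups, the Gabra5 points above 1 TPM belong to 7 D1 MSN and 1 cholinergic interneuron, and the highest Gabra3 points are D2 MSN.

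Gabra2 encodes an alpha subunit of synaptic receptors. Its level in D1 MSN ran from 0.154 to 390 TPM with a median of 40.0, and in D2 MSN from 0.280 to 318 TPM with a median of 27.1. Positive cells made up 85% of D1 MSN (34 cells, interval 70.2 to 94.3%) and 81.6% of D2 MSN (31 cells, interval 65.7 to 92.3%), and the values of the groups overlapped over almost their whole range. No MSN had Gabra2 listed at 0, which held for 206 genes, 0.819% of the table. The means were 77.9 ± 92.9 TPM (SD over cells, n = 40) and 60.5 ± 83.6 TPM (n = 38), a log2 fold of D1 over D2 of 0.36, computed as the log2 ratio of mean TPM + 1. The plates went opposite ways, with a log2 fold of −0.78 on FACS051_5 and 1.08 on FACS086_4. On FACS086_4 the medians were 77.9 TPM in D1 and 8.53 TPM in D2 MSN, whereas on FACS051_5 they were 26.5 and 36.6 TPM.

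Gabra4, the alpha subunit with the arginine codon above, had similar means in both groups but a higher median in D1 MSN. In D1 MSN it ranged from 0 to 383 TPM with a median of 102, and in D2 MSN from 0 to 402 TPM with a median of 47.2. There were 33 positive D1 MSN (82.5%, interval 67.2 to 92.7%) and 28 positive D2 MSN (73.7%, interval 56.9 to 86.6%). The means, 109 ± 97.0 TPM and 102 ± 121 TPM (SD over cells), gave a log2 fold of 0.10, with −0.22 and 0.13 on the large plates. The log2 fold turned to −0.56 when cells were rescaled to a common upper quartile. It was 0.73 as a difference of mean log2 values. The median was higher in D1 MSN on both large plates, at 77.1 against 65.3 TPM on FACS051_5 and 109 against 43.7 TPM on FACS086_4. Because the fold of the means changed sign between plates and settings, no direction is given for Gabra4. The cells without Gabra4 had fewer genes, with a median of 3492 genes above 1 TPM in the 17 MSN at or below 1 TPM of Gabra4 against 5967 in the other 61. This was not particular to Gabra4, since each of the other subunit genes had the same direction. The medians were 3979 against 5824 for Gabra2 and 3972 against 5768.5 for Gabrd. The part of RNA capture in these differences was not tested.

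Gabra3 encodes an alpha subunit that is abundant in monoaminergic and cholinergic neurons and sparse in the adult striatum. Only 7 D1 MSN were positive (17.5%, interval 7.34 to 32.8%), at 29.4, 24.8, 18.2, 15.002, 5.70, 4.94 and 4.55 TPM. Among D2 MSN, 12 cells were positive (31.6%, interval 17.5 to 48.7%), at 178, 166, 112, 111, 96.2, 31.02, 17.2, 15.5, 7.44, 4.23, 2.58 and 2.34 TPM. The 6 highest cells were thus all D2 MSN. The intervals of the shares overlapped, which does not decide whether the groups differ. The median of the positive cells was 15.002 TPM in D1 and 24.1 TPM in D2 MSN. The means were 2.61 ± 6.87 TPM (SD over cells) in the D1 and 19.7 ± 46.6 TPM in the D2 group, which is a log2 fold of −2.52. Both large plates had this direction, with log2 folds of −1.86 on FACS051_5 and −3.20 on FACS086_4, and leaving out any 1 MSN kept it between −2.82 and −2.18. The D2 MSN with Gabra3 had a median Drd2 of 8.01 TPM against 27.9 TPM in the other 26 D2 MSN, and a median EGFP fluorescence of 872 against 866 units of the sorter. The highest sum of the 4 cholinergic markers in any D2 MSN was 10.8 TPM.

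Gabra5, an alpha subunit of mainly extrasynaptic receptors in hippocampus and deep cortex, passed 1 TPM in some D1 MSN and in no D2 MSN. Positive cells were 7 of 40 D1 MSN (17.5%, interval 7.34 to 32.8%), with 310, 86.6, 81.1, 44.0, 24.2, 16.9 and 4.82 TPM. None of 38 D2 MSN passed 1 TPM, a share of 0% with an upper bound of 9.25%, and the 2 of them above 0 had 0.327 and 0.505 TPM. The upper bound in D2 MSN lies above the lower bound in D1 MSN. These intervals cover counting error over cells only, so their overlap does not decide whether the groups differ. The positive cells came from both large plates, 2 from FACS051_5 and 5 from FACS086_4. The means were 14.2 ± 51.9 TPM and 0.0219 ± 0.0964 TPM (SD over cells), a log2 fold of 3.89, and on FACS051_5 the log2 fold was 4.43. On FACS086_4 all 19 D2 MSN were listed at 0 against a D1 mean of 8.40 TPM, so no fold was formed there.

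The cell with the highest Gabra5 carried 54.6% of the summed Gabra5 of D1 MSN. It sat in well B07 of FACS051_5 and had Drd1 listed at 0, with 366 TPM of Pdyn and 222 TPM of Tac1, the peptide genes of direct pathway neurons. Without it the log2 fold was 2.90. The size of this fold also rested on the pseudocount, because the D2 mean is close to 0, and it was 6.87 with 0.1 TPM and 1.27 with 10 TPM. All 7 Gabra5 cells were also above 1 TPM for Gabra4, and 6 were for Gabrd. Their median number of genes was 6028 against 5508 in the other 33 D1 MSN. The antisense neighbour Gm9962 was above 0 in 1 of them, at 1.28 TPM. Of markers of cortical excitatory neurons, where Gabra5 is also known to be expressed, the summed level ran from 0 to 147 TPM with a median of 1.14 in the 7 cells, and from 0 to 17.9 TPM with a median of 0.385 in the other D1 MSN. The 147 TPM belonged to 1 cell with 16.9 TPM of Gabra5, and their part in Gabra5 was not tested.

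**Figure D2:**
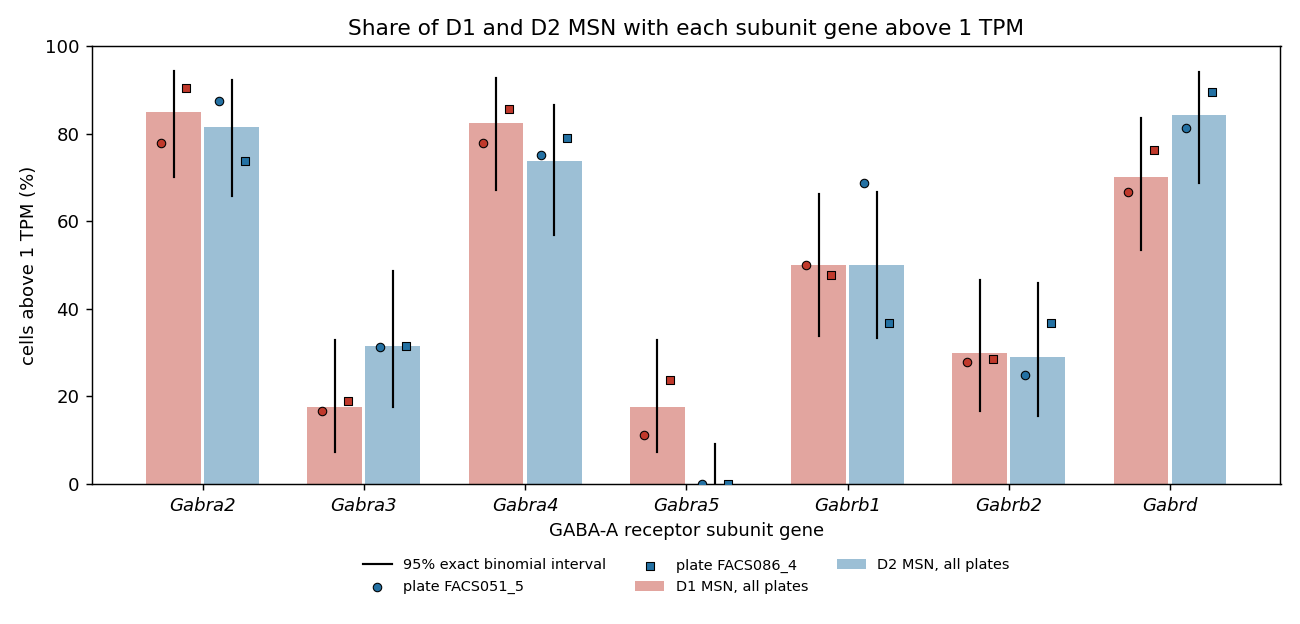
Bars give the share of D1 MSN (red, n = 40) and D2 MSN (blue, n = 38) above 1 TPM for each gene on the y axis in percent, lines are 95% exact binomial intervals, and circles and squares are the shares on plates FACS051_5 and FACS086_4. Gabrb1 is at 50% in both groups over all plates, and Gabra5 is at 17.5% in D1 and at 0% in D2 MSN.

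Gabrb1 and Gabrb2 encode beta subunits, which hold the GABA binding site together with alpha. For Gabrb1, 50% of each group was positive, that is 20 of 40 D1 MSN (interval 33.8 to 66.2%) alongside 19 of 38 D2 MSN (interval 33.4 to 66.6%). The shares were not equal within plates. They were 50% in D1 and 68.8% in D2 MSN on FACS051_5, and 47.6% and 36.8% on FACS086_4. Gabrb1 levels ran from 0 to 566 TPM in D1 MSN and from 0 to 402 TPM in D2 MSN, with medians of 1.003 and 1.04 TPM. A further 35 MSN had values above 0 but at or below 1 TPM, with a median of 0.113 TPM, so that only 4 MSN had Gabrb1 listed at 0. Its exons have the longest summed length of the 7 genes, 13838 bases in GENCODE M21 against 2875 for Gabrd, and a read weighs less TPM in a longer gene. The means of 38.3 ± 97.0 and 30.8 ± 76.5 TPM (SD over cells) gave a log2 fold of 0.31. It was −0.30 without the 1 D1 MSN at 566 TPM, and −0.30 and 0.30 on the large plates, so no direction is given. The D1 MSN with the high astrocyte markers, well D04, had 114 TPM of Gabrb1 and also the highest Gabrg1 of all MSN, at 173 TPM, whereas Gabra3, Gabra4, Gabra5, Gabrb2 and Gabrd were listed at 0 there.

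For Gabrb2 the positive cells were 12 D1 MSN (30%, interval 16.6 to 46.5%) and 11 D2 MSN (28.9%, interval 15.4 to 45.9%). The median was 0 in both groups, and the highest values were 274 TPM in D1 and 194 TPM in D2 MSN. The means were 19.9 ± 51.6 and 7.70 ± 31.6 TPM (SD over cells), a log2 fold of 1.27. This fold turned on single cells, since 1 D2 MSN held 66.2% of the D2 sum. Without that cell it was 2.51, and without the D1 MSN at 274 TPM it was 0.73. On the large plates it was 2.08 and 0.63, and it stayed beyond 1 under 10 of 14 alternatives.

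Gabrd encodes delta, the subunit of tonic inhibition. Its level ran from 0 to 512 TPM with a median of 61.4 in D1 MSN and from 0 to 757 TPM with a median of 96.5 in D2 MSN. Of the D1 MSN, 28 were positive (70%, interval 53.5 to 83.4%), and of the D2 MSN 32 (84.2%, interval 68.7 to 94.0%). The groups overlapped over most of the range, and 1 D2 MSN on the small plate FACS086_9 held the highest value of all. The means of 105 ± 127 and 150 ± 168 TPM (SD over cells) gave a log2 fold of −0.51. It was −0.23 and −0.24 on the large plates and −0.24 without the 4 cells of FACS086_9. The medians went opposite ways on the large plates, with 116 TPM in D1 against 80.7 TPM in D2 MSN on FACS051_5 and 46.0 against 103 TPM on FACS086_4, so no direction is given for Gabrd.

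**Figure D3:**
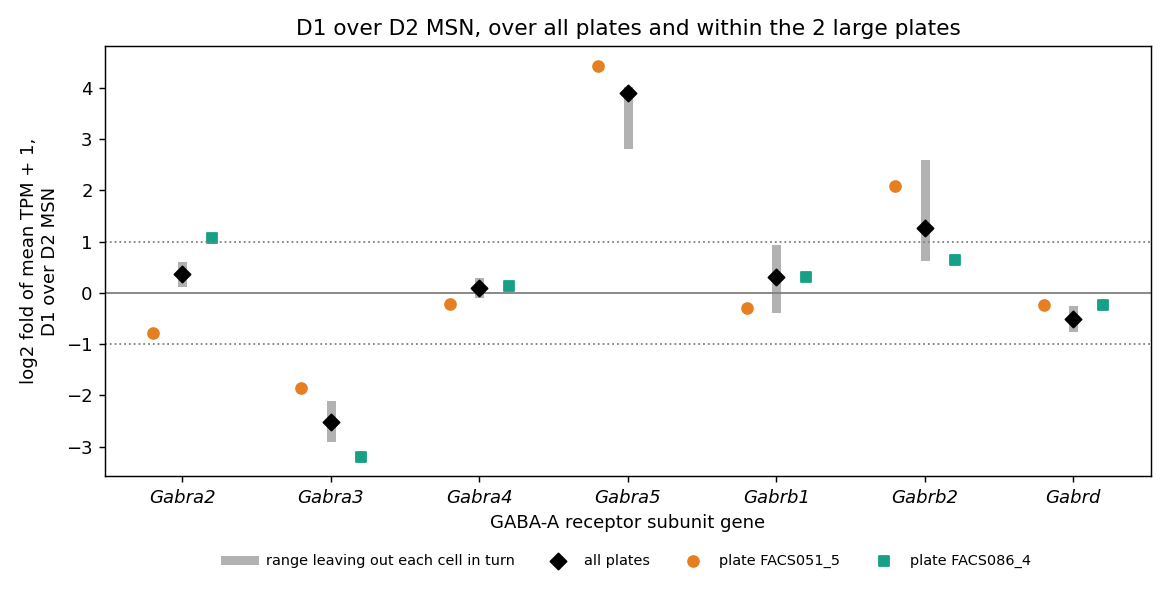
The y axis gives the log2 fold of mean TPM + 1, D1 over D2 MSN, for each gene over all plates (diamonds) and on plates FACS051_5 (circles) and FACS086_4 (squares); grey bars give the range when each MSN is left out in turn, and dotted lines mark 1 and −1. Gabra3 lies below −1 and Gabra5 above 1 at each point drawn, Gabra5 has no point for FACS086_4 because its D2 MSN are listed at 0, and Gabra2 changes sign between the plates.

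These folds were read against those of all genes. Of the 15671 genes whose mean reached 1 TPM, 21.1% had a log2 fold above 1, and 2 of the 7 subunit genes did, Gabra5 and Gabrb2. A log2 fold below −1 was seen in 14.8% of genes and in 1 subunit gene, Gabra3. Beyond 1 in either direction lay 35.8% of all genes and 3 of the 7 subunit genes (42.9%), so the subunit genes were near the background. A log2 fold above 1 over all plates and on both large plates was seen in 5.84% of genes. This count takes a group listed at 0 at the pseudocount of 1 TPM, and only on that footing does it include 1 subunit gene, Gabra5, whose D2 MSN were listed at 0 on FACS086_4. The matching share below −1 was 4.3% of genes, and 1 subunit gene, Gabra3, was among them. The median log2 fold of the 7 genes was 0.31 against 0.09 over all genes, and their median size regardless of sign was 0.51 against 0.67. When log2(TPM + 1) values were averaged over cells before the difference was taken, 0 of the 7 genes lay beyond 1, with Gabra3 at −0.92 and Gabra5 at 0.92. At least 7 positive D1 MSN with 0 positive D2 MSN, a criterion set after the Gabra5 values were seen, was met by 25 of 13963 genes (0.179%). Gabra5 meets this criterion by construction. The 13963 genes are those above 1 TPM in at least 7 MSN, many of them in far more cells. The share is therefore no measure of how unusual Gabra5 is.

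Single MSN held several of the subunit genes at once. The median was 4 of the 7 genes above 1 TPM in both groups, with means of 3.53 in D1 and 3.50 in D2 MSN. No MSN had all 7, 4 D1 MSN had 6, the highest number in D2 MSN was 5, and 1 D2 MSN had 0. Over the 78 MSN the number of subunit genes had a Pearson r of 0.71 with the number of all genes above 1 TPM in the cell, and r was 0.77 and 0.66 on the large plates. For the level of single genes, as log2(TPM + 1), r with the number of genes lay between 0.13 for Gabra3 and 0.47 for Gabra4.

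Gabra4 and Gabrd, the usual partners of extrasynaptic receptors, were above 1 TPM together in 50 of 78 MSN (64.1%, interval 52.4 to 74.7%). The count was 25 in D1 MSN (62.5%) and 25 in D2 MSN (65.8%). Each gene was widely detected by itself, Gabra4 in 61 and Gabrd in 60 of the 78 MSN. The joint count was not particular to this pair, since Gabra2 and Gabrd were together in 50 MSN and Gabra2 and Gabra4 in 54. Gabra4 without Gabrd was seen in 8 D1 and 3 D2 MSN, and Gabrd without Gabra4 in 3 D1 and 7 D2 MSN. Their levels within cells were only loosely related, with a Pearson r of 0.13 over 78 MSN on the log2(TPM + 1) scale. Gabrd was above 1 TPM in all 19 MSN with Gabra3, compared with 41 of the other 59, and the levels of Gabra3 and Gabrd had an r of 0.30. Likewise, Gabra2 was above 1 TPM in all 23 MSN with Gabrb2, compared with 42 of the other 55, and that pair had the highest r of the 21 pairs, 0.32. Over all pairs r lay between −0.05 and 0.32 with a median of 0.11. The 3 pairs formed by the chromosome 5 genes among the 7 all lay above this median and below the highest r. They had r of 0.19 for Gabra2 and Gabra4, 0.19 for Gabra2 and Gabrb1 and 0.22 for Gabra4 and Gabrb1. The points of these correlations share depth, since each r is taken over the same cells.

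**Figure D4:**
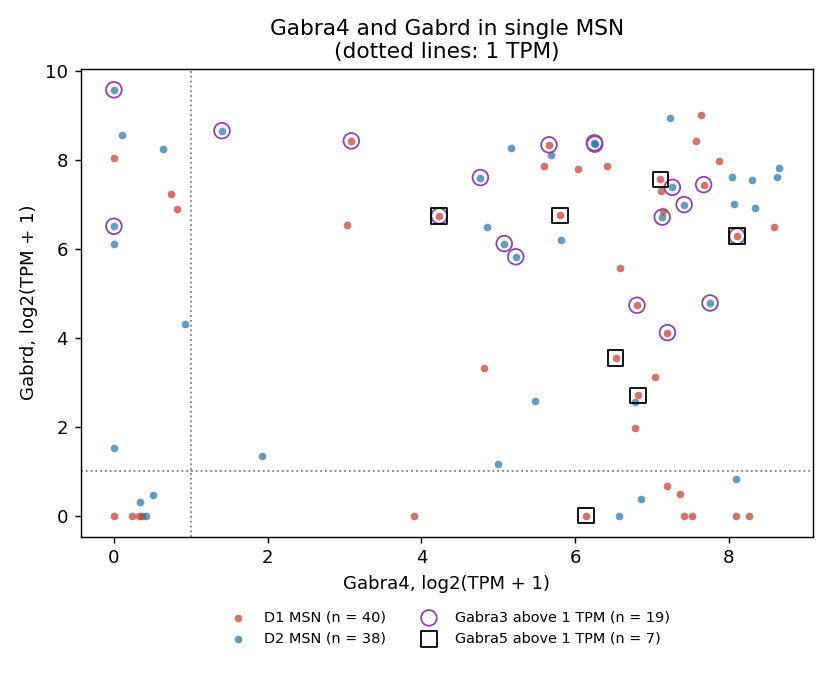
Each point is 1 MSN, with Gabra4 on the x axis and Gabrd on the y axis, both as log2(TPM + 1); red points are D1 MSN, blue points are D2 MSN, circles mark the 19 cells with Gabra3 and squares the 7 cells with Gabra5 above 1 TPM, and dotted lines mark 1 TPM. All circled cells lie above the dotted Gabrd line, and all squared cells lie to the right of the dotted Gabra4 line.

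The 4 alpha genes were then set against each other within each cell. At least 1 of them was above 1 TPM in 37 of 40 D1 and 35 of 38 D2 MSN. Gabra4 was the highest of the 4 in 23 of these D1 MSN, followed by Gabra2 in 12 and Gabra5 in 2. In D2 MSN Gabra4 was highest in 17 cells, Gabra2 in 15 and Gabra3 in 3. Of the summed TPM of the 4 genes, Gabra4 made 53.6% in D1 and 56.0% in D2 MSN, and Gabra2 made 38.1% and 33.2%. Gabra5 made 6.95% in D1 and 0.0120% in D2 MSN, and Gabra3 made 1.28% and 10.8%. By the codon shown above, Gabra4 exceeded the sum of the 3 histidine alpha genes in 20 of 37 D1 MSN (interval 36.9 to 70.5%) and in 17 of 35 D2 MSN (interval 31.4 to 66.0%). The share of Gabra4 per cell ran from 0 to 99.6% in D1 MSN (median 52.0%) and from 0 to 99.8% in D2 MSN (median 49.1%). It was over 90% in 14 of the 72 cells and under 10% in another 14, and the remaining cells held transcripts of both classes above these limits.

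**Figure D5:**
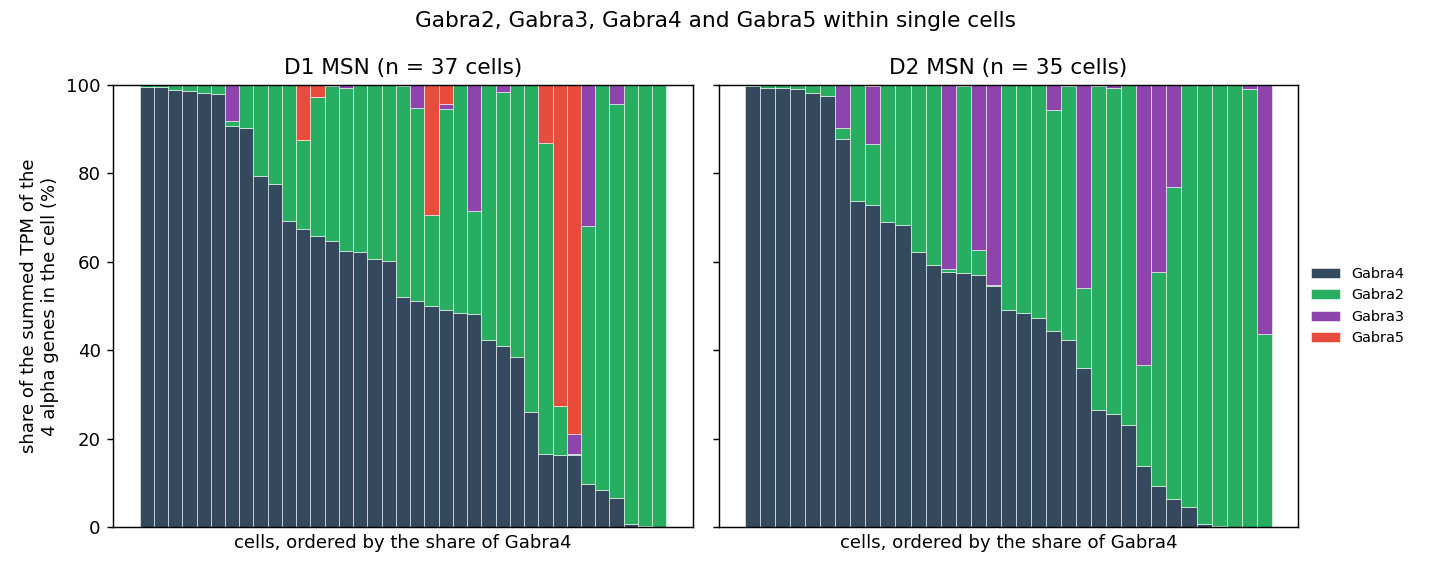
Each column is 1 MSN with Gabra2, Gabra3, Gabra4 or Gabra5 above 1 TPM (37 D1 MSN on the left, 35 D2 MSN on the right), ordered by the share of Gabra4, and the y axis gives the share of each gene in the summed TPM of the 4 genes in that cell in percent. Gabra4 is the highest in 23 D1 and 17 D2 MSN, the visible Gabra5 segments are in D1 MSN, and Gabra3 makes 1.28% of the pooled TPM in D1 and 10.8% in D2 MSN.

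Of the other subunit genes, Gabrg1, Gabrg3, Gabre, Gabrq and Gabrr1 are described. Gabrg3, a gamma subunit gene, was positive in 17 D1 and 23 D2 MSN, with means of 47.4 and 56.2 TPM and log2 folds of −0.57 and −0.22 on the large plates. Gabrg1, another gamma subunit gene, was positive in 6 D1 and 10 D2 MSN, with means of 4.96 and 3.03 TPM, which is a log2 fold of 0.56. Without the D1 MSN in well D04, with its high astrocyte markers and 173 TPM of Gabrg1, the D1 mean was 0.661 TPM and the log2 fold −1.28, an alternative chosen after the data were seen. On FACS051_5 the log2 fold was then −0.35 in place of 2.08, and on FACS086_4 it was −2.19. The means of Gabre and Gabrq were below 1 TPM in both groups, and Gabrr1 was listed at 0 in all MSN.

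The 2 cholinergic interneurons, with 347 and 307 TPM of Chat and 10912 and 10251 genes above 1 TPM, had Gabrd at 0.592 and 0 TPM. Of the MSN, 60 of 78 had Gabrd above 1 TPM and 12 had it listed at 0. Gabra3 was present in both interneurons, at 13.2 and 29.1 TPM, as were Gabra4 at 31.8 and 62.1 TPM, Gabra2 at 33.0 and 10.7 TPM and Gabrb1 at 116 and 36.6 TPM. Gabrb2 was at 0 and 0.489 TPM, and Gabra5 at 0 and 1.53 TPM. Both cells also had Gabrg1, at 22.3 and 5.31 TPM. With 2 cells these values stand as a description.

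Genes that anchor, move or power the receptors were described from a list of 22, of which 20 were listed and 19 reached a mean of 1 TPM. Of the 19, 2 had a log2 fold above 1 and 2 below −1 (4 of 19, 21.1%), against 35.8% of all genes beyond 1. The highest means over MSN were those of Gabarapl2 (348 TPM), Gabarapl1 (336 TPM), both of the GABA-A receptor associated protein family, and Nsf (165 TPM), an ATPase of membrane fusion that binds beta subunits. The folds beyond 1 were Zdhhc3, a palmitoyltransferase, at −1.54, Trak2, a trafficking adaptor, at −1.35, Hap1, which carries receptors back to the membrane, at 1.42, and Slc12a2, the chloride importer NKCC1, at 1.28. Hap1 was positive in 18 D1 and 5 D2 MSN, with log2 folds of 1.86 and 0.91 on the large plates. Trak2 had −1.96 and −0.30 there, Slc12a2 0.35 and 1.94 with 6 positive D1 and 1 positive D2 MSN, and Zdhhc3 −0.93 and −3.00 with 13 positive D1 and 9 positive D2 MSN. Slc12a5, the chloride exporter KCC2 that keeps GABA inhibitory, was positive in 35 D1 and 35 D2 MSN, with means of 179 and 118 TPM. Gphn, the gene of the scaffold gephyrin, was above 1 TPM in 25 MSN of each group, with means of 39.4 and 34.4 TPM.

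The genes whose levels over the 78 MSN were most like each member were sought among 7769 genes above 1 TPM in at least 20 MSN, by Pearson r of log2(TPM + 1). For Gabra4 they were Ndrg4 (0.58), Sgip1 (0.58) and Dach1 (0.57). For Gabrb1 they were Abat (0.54), the enzyme that breaks down GABA, Dlgap1 (0.54), a scaffold of excitatory synapses, and BC003965 (0.52). For Gabrb2 they were Gnai1 (0.53), Cyp2u1 (0.51) and 4930511M06Rik (0.51), for Gabra2 Gm23237 (0.53), Selk (0.48) and Wasf1 (0.47), and for Gabrd Prpf4b (0.47), Dmxl2 (0.45) and Txnl4a (0.45). Gabra3 and Gabra5 were positive in fewer than 20 MSN and were left out. These are the highest of many correlations over the same cells, and each of the 15 genes also had a positive r with the number of genes per cell, from 0.19 to 0.66, so they stand as a description. Some r values differed between the large plates. With Gabra2, Gm23237 had 0.33 on FACS051_5 and 0.60 on FACS086_4, and Wasf1 had 0.64 and 0.34. Spearman rank correlations of the 15 genes ran from 0.33 for Selk to 0.56 for Dach1.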

How the data were processed

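Expression was measured by scRNA-Seq (SMARTer v3 cDNA, paired-end reads) in 80 FACS-sorted cells. The authors aligned reads with STAR 2.5.0 to mm10/GRCm38 with added reporter sequences and counted them with featureCounts 1.5.1, per the methods and the submitters' processing notes. The deposited values are TPM, and how the TPM were made from counts is not given in the sources used here. Because depth cannot be read from TPM, the limit of detection is unknown, and an exact 0 may be a failed capture. The listed genes summed to 506588 to 958040 TPM per cell. The study's text speaks of fewer usable cells than the 80 deposited columns, and all 80 were used here. No doublet caller was run, since cells were sorted singly into wells.

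D1 MSN were the 40 Drd1-labelled cells and D2 MSN the 38 Drd2-labelled cells with Chat at or below 100 TPM. Folds were taken of mean TPM with a pseudocount of 1 TPM over genes whose mean reached 1 TPM. The named genes were all 7 members, 5 other subunit genes, and, of the anchoring list, the 3 highest means, those with a log2 fold beyond 1, and Slc12a5 and Gphn, which were added after their values were seen. The members and lists were chosen with earlier results of these data known. Some further genes of the family are not reported here. Scripts were tested on simulated data. Tables were made in Python 3.11.15 (pandas 2.3.3, numpy 2.4.6), intervals with scipy 1.17.1 and figures with matplotlib 3.10.9.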

Additional observations from a re-analysis of the deposited data

How the results depend on the processing

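No paired analysis was possible because the labels tie no D1 MSN to a D2 MSN and name no animal, so values within plates stand in for it. Each group is 1 sample, so plate and cell choices are the only spread that can be shown. Gabra3 kept its negative log2 fold under 14 of 14 alternatives (−3.05 to −0.92), Gabrd under 14 of 14 (−0.96 to −0.24), Gabrb2 its positive one under 14 of 14 (0.58 to 2.51), and Gabra5 under the 12 of 12 that gave a value (0.92 to 6.87). Without plate FACS051_5, and as the mean of the folds within the large plates, Gabra5 has no fold because D2 MSN are listed at 0. Gabra2 kept its sign under 13 of 14, Gabrb1 under 12 and Gabra4 under 11. The number of the 7 genes beyond 1 was 3, and 0 as a difference of mean log2 values. It was 2 with a pseudocount of 10 TPM and 2 without FACS051_5. The number lay between 2 and 3 when each MSN was left out in turn, an alternative added after the data were seen. The median log2 fold of the 7 genes, 0.31, was then between 0.01 and 0.41. Under the other settings this median ran from −0.00017 as the mean of the folds within the large plates to 0.67 without FACS051_5. In both of these settings the count and the median include Gabra5, with its D2 MSN listed at 0 taken at the pseudocount. The median number of the genes per MSN, 4, became 5 above 0 TPM, 3 above 10 TPM and 3.5 without plate FACS086_4, and the mean, also added after the data were seen, was 3.51. The share of all genes beyond 1, 35.8%, was 25.1% with no filter, 22.0% at a mean of at least 10 TPM, and 41.3% and 7.96% with pseudocounts of 0.1 and 10 TPM. Why these values moved was not tested.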
